A study of Homo sapiens with 4 samples.

Results

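The genes described here are 8 transcription factor genes of the hepatocyte: FOXA2, FOXA3, CEBPA, CEBPB, ONECUT1, PROX1, NR5A2 and NR1H4. They are 8 of 20007 protein-coding genes of the GENCODE annotation of GRCh38. A DNA loop was assigned to a gene when at least 1 of its anchors overlapped the gene body or the 50 kb on either side of it, and this stretch is called the window of the gene. The loops found in this way were 132 of 77862 distinct loops listed for either condition, and no loop belonged to more than 1 of the 8 windows. The rule that set the genes used no measured value, but earlier results of these data were known when they were chosen.

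The loops come from POLR2A HiChIP-seq, in which chromatin cut with MboI is religated in place and the fragments carrying POLR2A, the catalytic subunit of RNA polymerase II (RNAPII), are pulled down with an antibody. A paired-end tag (PET) records that 2 fragments were ligated to each other, and a loop is a pair of anchors with its count of PETs. The study asked whether G-quadruplex (G4) structures, stacks of guanines that form in G-rich DNA, take part in such RNAPII-linked contacts. Its 4 libraries were made from HepG2, an established human hepatocellular carcinoma cell line, in 2 replicates per condition: mock-treated cells, which received sterilized water, and cells exposed for 24 h to 20 µM PDS. PDS is pyridostatin, a small molecule that binds G4 structures, and both groups were the same line grown in the same medium. Both lists held 1 combined value per loop, so no spread between replicates could be computed, no test between conditions was made, and every interval below is a 95% interval of counting error alone. The lowest count in both lists was 3 PETs, so a loop that is not listed had at most 2 PETs there. The listed PETs summed to 254647 in mock-treated cells and to 67001 after PDS treatment. The number of sequenced read pairs per library was not used here, so a shallower PDS library and fewer contacts cannot be told apart, nor can fewer cells with a loop and a weaker loop in every cell. Among promoters of cell type markers, 7 of 8 of the hepatocyte had a loop in mock-treated cells, with 13 loops at ALB, the albumin gene. Of 6 blood cell markers, 4 (PTPRC, GATA1, HBG1 and SPI1) had no listed loop in either condition, and CD3E and TAL1 had 2 and 1 in mock-treated cells. Of 4 fibroblast markers, COL1A1 had 4 mock loops and COL3A1 had 3. The share over all promoters was not computed, so the presence of a loop does not by itself tell the cell type.

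Hepatocyte identity rests on a network of factors that bind one another's enhancers. FOXA factors open compacted chromatin at liver enhancers, C/EBP factors switch on metabolic and acute-phase genes, and ONECUT1 and PROX1 act in liver development. The nuclear receptors NR5A2 and NR1H4 control the synthesis and transport of bile acids.

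The study asked about G4 structures, so the predicted G4 motifs nearest to and upstream of the start sites are shown first for 6 of these genes. A motif was defined as 4 runs of at least 3 G, separated by spacers of 1 to 7 bases, on either strand. Each line gives the position in GRCh38, the strand that carries the G runs and how far the outer end of the motif lies from the canonical transcription start site, and the capitals mark the G runs.
FOXA2, chr20:22584610-22584631, + strand, 59 bases upstream: GGGGGctagtGGGGGGGtGGGG
FOXA3, chr19:45864246-45864270, + strand, 80 bases upstream: GGGGaggcGGGaGGGGagcccGGGG
CEBPA, chr19:33302893-33302916, + strand, 382 bases upstream: GGGGtaGGGGtGGGGGGcggaGGG
CEBPB, chr20:50190593-50190614, + strand, 237 bases upstream: GGGGcggccGGGcGGGGGtGGG
PROX1, chr1:213987778-213987799, - strand, 195 bases upstream: GGGGtGGGGGtgaGGGGctGGG
NR1H4, chr12:100473491-100473513, + strand, 375 bases upstream: GGGtggctGGGcagaGGGaaGGG

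NR5A2 had no such motif within 1 kb of its canonical start site. The share with a motif in this stretch was thus 7 of 8 genes, beside 68.6% of 20033 canonical start sites of protein-coding genes. The motifs of FOXA2, CEBPB and PROX1 lay inside an anchor of a listed loop. Those of FOXA3, CEBPA and NR1H4 lay in no listed anchor, so the promoter motif itself was not part of any contact in these lists. A motif is a match of letters, and no measurement of G4 folding was used.

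In mock-treated cells, the 8 windows held 119 loops that summed to 481 PETs, and after PDS treatment they held 33 that summed to 115. The loop numbers thus had a PDS/mock ratio of 0.277 (0.189 to 0.407), beside 0.283 (0.278 to 0.287) over all loops. For PETs the ratio was 0.239 (0.195 to 0.293), beside 0.263 (0.261 to 0.265) over all listed loops. The PETs of a loop enter or leave a list together, so intervals of PET ratios, which treat each PET as independent, are too narrow. At the minimum of 3 PETs, the reduction at these genes was therefore not distinguishable from that of the lists as a whole. At 5 PETs or more, with 23 mock loops and 2 PDS loops, the PET ratio was 0.075 (0.0421 to 0.134), below 0.161 over all loops. The loop ratio there was 0.0870 (0.0227 to 0.333), beside 0.149 over all loops. Relative to the list totals, the windows took 18.9 of every 10000 listed PETs in mock-treated cells and 17.2 after PDS treatment. Mock loops of these genes had 4.04 PETs on average. A count of 3 PETs, the minimum, was found for 63 of the 119 (52.9%, 44.0 to 61.7%), beside 59.9% of all mock loops.

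Few loops of the hepatocyte factors were found with the same anchors in both lists. An identical pair of anchors was listed in both conditions for 20 loops, which is 16.8% of the 119 mock loops (11.2 to 24.5%), beside 11.0% of all mock loops. This share depends on exact matching: with anchors extended by 5 kb it was 51.3% (42.4 to 60.1%), beside 32.5% of all mock loops and 50.6% of those on chromosome 20. These 20 made up 60.6% of the 33 PDS loops (43.7 to 75.3%), beside 39.1% of all PDS loops. Of the 20, 11 had fewer PETs after PDS, 7 had the same number and 2 had more. Over all shared loops, 55.3% had fewer and 14.6% had more. The other 99 mock loops were not listed after PDS, and 13 loops were listed only after PDS, none of them with more than 4 PETs. Over all PDS loops, 60.9% were of this kind. Well-supported loops were more often in both lists: 9 of the 23 mock loops with at least 5 PETs were also listed after PDS, beside 26.8% of all such loops. The plot of PETs per loop in both conditions shows these groups.

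**Figure D1:**
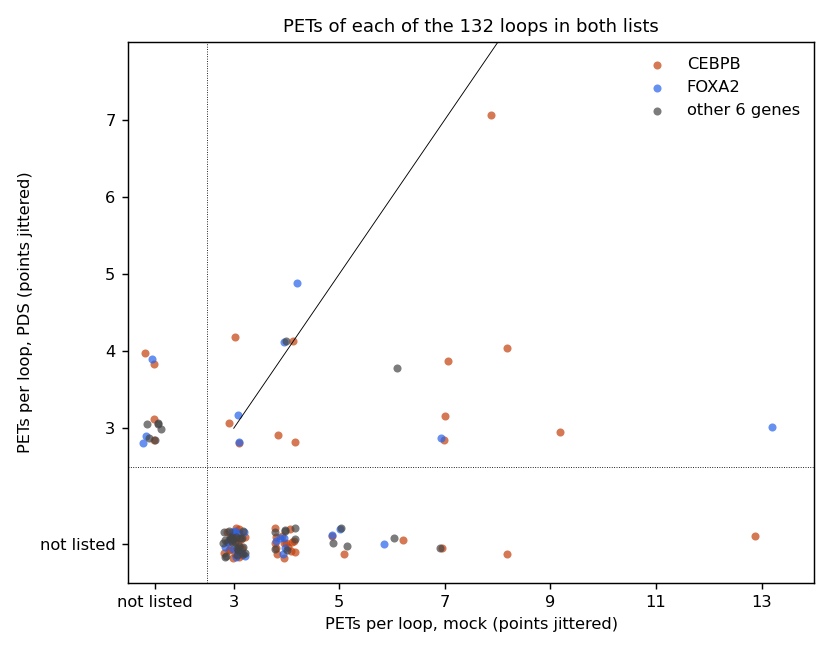
PETs of each of the 132 loops in mock-treated cells (horizontal axis) and after PDS treatment (vertical axis), with points jittered for display, loops not listed in a condition placed outside the dotted lines, and the solid line marking equal counts. Most points lie in the lower band of loops not listed after PDS, and the 2 mock loops with 13 PETs had 3 PETs and no listing after PDS.

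The 8 genes differed widely in how many loops they had, with CEBPB and FOXA2 far above the rest. The CEBPB window held 56 mock loops and 16 PDS loops, the FOXA2 window 26 and 9, the CEBPA window 10 and 2, and the PROX1 window 9 and 1. NR1H4 had 8 and 2, ONECUT1 had 4 and 0, NR5A2 had 4 and 1, and FOXA3 had 2 in each condition. CEBPB and FOXA2 together took 82 of the 119 mock loops and 25 of the 33 PDS loops. Both lie on chromosome 20, whose genes had a median of 23 mock loops per window against 6 over all genes. CEBPB had more mock loops than 96.1% of the 544 genes of that chromosome, whereas FOXA2, which exceeded 95.5% of all genes, had more than only 57.9% of them.

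**Figure D2:**
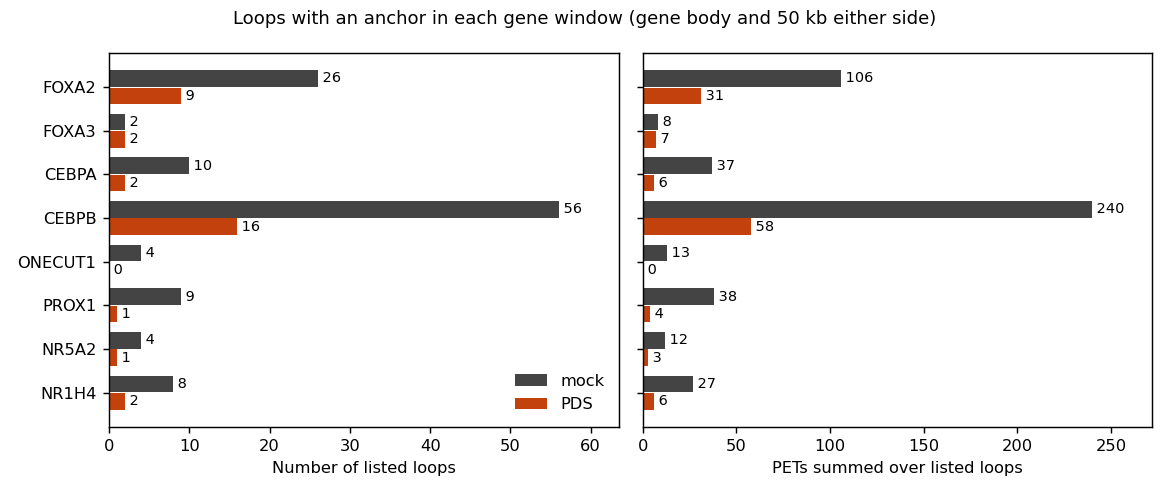
Number of listed loops (left) and PETs summed over these loops (right) in the window of each gene, in mock-treated cells (grey) and after PDS treatment (orange). CEBPB and FOXA2 have the longest bars in both conditions, and FOXA3 is the gene with the same number of loops, 2, in each list.

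For 5 of the 8 genes there were at least 5 mock loops, which was required before a ratio was read for a single gene. In all 5, the ratio was at or below 0.5, as it was in 94.1% of 11806 such windows of protein-coding genes, so this count does not set these genes apart. Their median ratio was 0.25, and the median over all such windows was 0.214. Between single genes the intervals overlapped: the ratio was 0.346 (0.165 to 0.726) for FOXA2, 0.286 (0.165 to 0.495) for CEBPB, 0.200 (0.0493 to 0.812) for CEBPA, 0.111 (0.0182 to 0.678) for PROX1 and 0.25 (0.0601 to 1.04) for NR1H4. For the other 3 genes, with at most 4 mock loops, the intervals reached 0.96 or higher, and no order among them can be read.

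**Figure D3:**
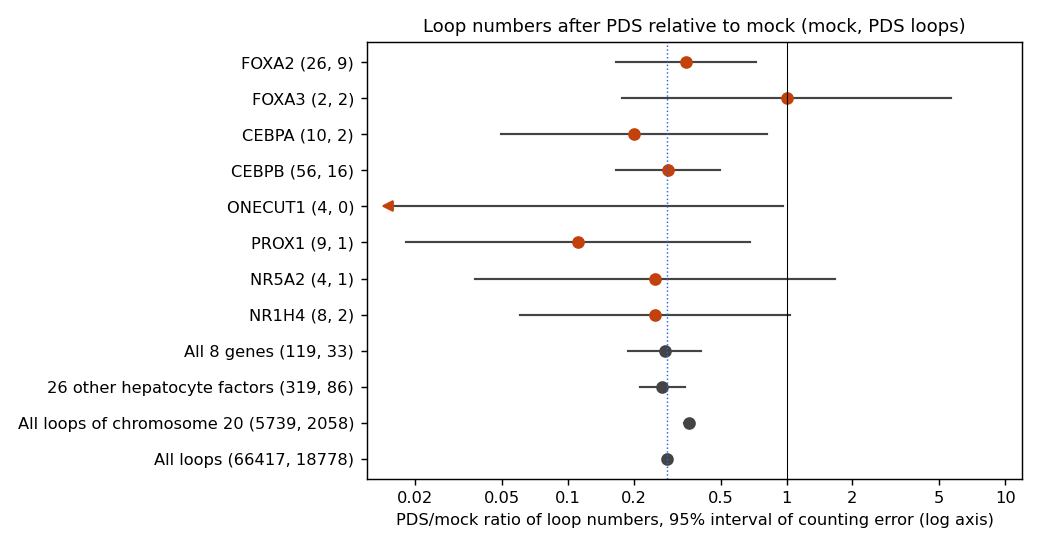
PDS/mock ratio of loop numbers on a log axis for each gene, for all 8 genes, for 26 other hepatocyte factor genes, for chromosome 20 and for all loops, with the numbers of mock and PDS loops in brackets, bars for the 95% interval of counting error, and the dotted line at the ratio over all loops. The interval of each gene includes that ratio, 0.283, and the arrow marks ONECUT1, which had 0 loops after PDS treatment and an upper bound of 0.960.

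CEBPB encodes C/EBPβ, the C/EBP factor of the acute-phase response, and is a single-exon gene at chr20:50190830-50192668 on the + strand. Its promoter lay in a broad anchor, chr20:50185026-50203796, that also held the start site of the lncRNA gene CEBPB-AS1. In mock-treated cells this anchor had 26 partner anchors with 112 PETs in all. Only 5 of 73492 mock anchors had at least as many partners, this one included, and the median anchor had 1. On chromosome 20 it had the most of 4502 anchors. It was also wide: its 18771 bp exceeded 97.8% of all anchors, and a wide anchor can gather more loops. Among 282 anchors of chromosome 20 within 20% of its width, itself included, the median was 4 partners, and 281 had fewer than 26.

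The partners of the CEBPB promoter lay mostly downstream, in the stretch between CEBPB and PTPN1, a tyrosine phosphatase gene that dampens insulin signalling. In mock-treated cells 22 partners were downstream and 4 upstream, 11 were more than 200 kb away, and the farthest was 415 kb from the start site. A single partner held the start site of a coding gene, PTPN1 itself, with 3 PETs in mock-treated cells and no listing after PDS. Start sites of lncRNA genes lay in 5 partners, among them PELATON (7 PETs) and LINC01270 (8 PETs, the highest count of this promoter). The loop to PELATON had 4 PETs after PDS, and the loop to LINC01270 was not listed.

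After PDS treatment the CEBPB promoter had 7 loops with 23 PETs, and each of the 7 had been listed in mock-treated cells. This is a PDS/mock ratio of 0.269 (0.120 to 0.607). Of the 7, 5 had fewer PETs after PDS and 2 had the same number. Beside the PELATON loop, the counts went from 7 to 3 for the anchor at chr20:50205467-50211159, 13.9 kb away, and from 7 to 3 for the anchor at chr20:50467185-50479178, 279 kb away. Those for chr20:50178343-50180893 and for chr20:50463555-50466386 went from 4 to 3. The remaining pair were chr20:50403349-50417224, with 4 PETs in each list, and chr20:50556292-50573241 inside PTPN1, with 3 in each. Contacts over more than 200 kb were thus still present, at 4 of 7 loops beside 11 of 26 in mock-treated cells. At least 7 partners in the PDS list were found for 66 of 28928 anchors, with a maximum of 22.

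The partner anchor at chr20:50467185-50479178, 282 kb downstream of the CEBPB start site, was itself a meeting point in mock-treated cells. It had 13 partners there with 57 PETs, and 6 of these loops reached the CEBPB window: the CEBPB promoter (7 PETs), the promoter of PEDS1 (4 PETs), a gene for a desaturase of plasmalogen lipids, and 4 other anchors with 3 PETs each, among them the start of PELATON. After PDS treatment the loop to the CEBPB promoter was the 1 that this anchor kept.

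Elsewhere in the CEBPB window there were 30 mock loops and 9 PDS loops away from promoter and gene body, of which 5 were shared. The loop with the most PETs joined an anchor 47.3 kb downstream of CEBPB, chr20:50235637-50240578, to the neighbouring PELATON anchor, chr20:50241151-50254255, with 13 PETs in mock-treated cells. It was not listed after PDS, although 71.9% of the 64 mock loops with 13 PETs were. The next PELATON loop, to chr20:50262749-50270907, went from 9 to 3 PETs. By contrast, the loop between the lncRNA starts of LINC01275 and LINC01273 upstream of CEBPB had 8 PETs in mock-treated cells and 7 after PDS, the highest PDS count at any of the 8 genes. The PEDS1 promoter was joined to the LINC01275 anchor by 8 and 4 PETs. SNAI1, a repressor of epithelial genes, was joined through its promoter to the PEDS1 promoter and to the LINC01275 anchor with 3 and 4 PETs in mock-treated cells, and neither loop was listed after PDS.

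**Figure D4:**
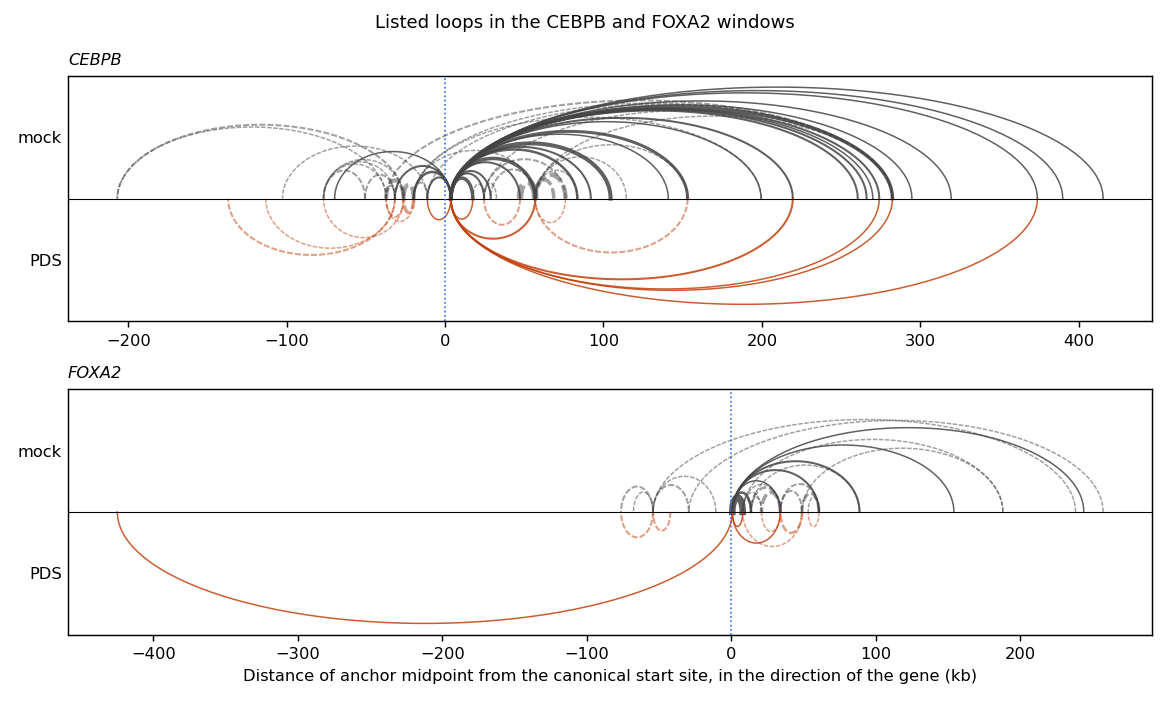
Listed loops of the CEBPB and FOXA2 windows as arcs between anchor midpoints, drawn against the distance from the canonical start site in the direction of the gene (kb), with mock loops above the line and PDS loops below it, line width in proportion to PETs, and solid arcs for loops of the gene's own promoter. The CEBPB promoter sends most of its 26 mock arcs downstream, and 7 of them remain below the line.

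FOXA2, at chr20:22580998-22585455 on the - strand, encodes a pioneer factor of endoderm and liver. Its window held no other protein-coding gene, and its strongest loop joined the FOXA2 promoter anchor, chr20:22579690-22588211, to the adjacent anchor at chr20:22574353-22579166, which holds a start site of the lncRNA gene LINC00261. This loop had 13 PETs in mock-treated cells and 3 after PDS. The promoter anchor had 7 loops with 35 PETs in mock-treated cells and 3 loops with 9 PETs after PDS, a ratio of 0.429 (0.121 to 1.52). All 7 mock partners lay downstream, up to 244 kb away. A second LINC00261 anchor, chr20:22542654-22558921, kept its 3 PETs with the promoter in both lists. The third PDS loop, of 3 PETs, reached 426 kb upstream to chr20:22998207-23021001 and was not in the mock list.

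Outside its promoter, the FOXA2 window held 19 mock loops and 6 PDS loops, of which 4 were shared. The highest counts there were 7 and 6 mock PETs. The loop of 7, between a pair of LINC00261 anchors, from chr20:22542654-22558921 to chr20:22560011-22567504, had 3 PETs after PDS. The loop from the first of these anchors to chr20:22533433-22538174 had 4 and 5, which is 1 of the 2 loops with a higher count after PDS. The other was in the CEBPB window, between PELATON and chr20:50337315-50350474, with 3 and 4 PETs. The loop of 6 mock PETs, from chr20:22521963-22526147 to chr20:22533433-22538174, was not listed after PDS. At 1 PET of difference, the higher counts are within counting error.

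FOXA3, the third FOXA gene of the liver, lies at chr19:45863989-45873797 among 5 other coding genes and had the fewest mock loops of the 8. No loop of either list had an anchor at its promoter. A loop from the 3′ part of the gene to the promoter of IRF2BP1, a transcriptional corepressor gene, had 4 PETs in both conditions. The other loops joined the promoter of NANOS2, a germ cell gene, to NOVA2, a neuronal splicing factor gene, with 4 PETs in mock-treated cells and 3 after PDS, at different NOVA2 anchors. With 2 loops in each list, the ratio of 1.0 has an interval of 0.177 to 5.67.

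CEBPA, at chr19:33299934-33302534 on the - strand, encodes C/EBPα, the C/EBP factor of the resting liver. It had no loop at its promoter, and a single loop, of 3 mock PETs, at its gene body. Its window held 10 loops in mock-treated cells, which summed to 37 PETs, and 2 after PDS, which summed to 6, and none was in both lists. The highest mock counts were 6 PETs between chr19:33253018-33284022 and chr19:33291488-33296038, downstream of the gene, and 5 PETs between the promoter of LRP3, a lipoprotein receptor family gene, and chr19:33329079-33338743. In mock-treated cells 4 loops, each of 3 PETs, linked the window to an anchor that held the promoter of PEPD, a dipeptidase gene, and part of CEBPG, another C/EBP gene. That anchor, chr19:33379186-33399046, had 7 partners in mock-treated cells and 0 in the PDS list.

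ONECUT1 and PROX1 encode homeodomain factors of hepatocyte and bile duct development. ONECUT1, at chr15:52755053-52791078, had 4 mock loops with 13 PETs and none after PDS, which leaves an upper bound of 0.960 for the ratio. Of the 4, 3 came from an anchor at its alternative start sites, chr15:52774966-52787536, and the one with 4 PETs spanned 669 kb, the longest loop of the 8 genes. PROX1, at chr1:213983181-214041510, had 9 mock loops, summing to 38 PETs, and a single PDS loop of 4 PETs. That loop, between chr1:213964298-213971074 and chr1:213972004-213977848, both upstream of PROX1, had 6 PETs in mock-treated cells. The first of its anchors held a start site of the antisense lncRNA gene PROX1-AS1. The strongest mock loop of PROX1, of 7 PETs, had an anchor at another PROX1-AS1 start site and was not listed after PDS. Neither were a pair of loops with 5 PETs. The PROX1 promoter had 1 mock loop, of 3 PETs, to PROX1-AS1, and none after PDS.

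The nuclear receptor genes had only loops at or near the detection limit. NR5A2, at chr1:200027614-200177420, encodes LRH-1, an activator of bile acid synthesis genes, and had 4 mock loops and 1 PDS loop, each of 3 PETs. In mock-treated cells 1 of these joined a pair of its own start sites, 12.5 kb apart. NR1H4, at chr12:100473708-100564414, encodes FXR, the bile acid receptor. It had 8 mock loops, of 3 or 4 PETs, and 2 PDS loops of 3 PETs, none shared. Its mock loops of 4 PETs included an intragenic anchor joined to a start site of SCYL2, 155 kb away, and to SLC17A8, a vesicular glutamate transporter gene, 86.4 kb away. The NR1H4 promoter had 1 loop of 3 PETs in each list, 90.8 kb long in mock-treated cells and 45.7 kb long after PDS.

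**Figure D5:**
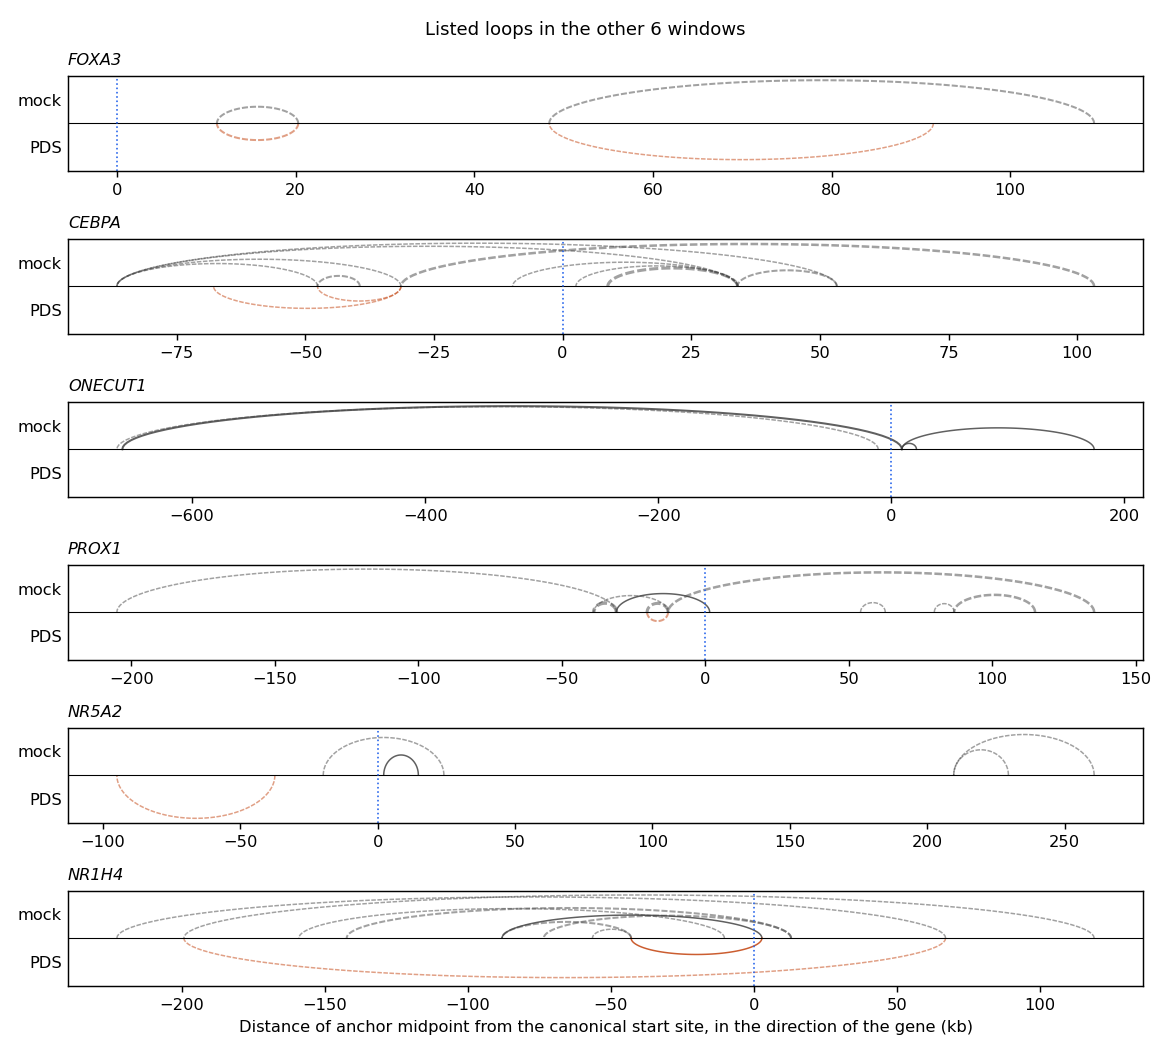
Listed loops of the windows of FOXA3, CEBPA, ONECUT1, PROX1, NR5A2 and NR1H4, drawn as arcs between anchor midpoints against the distance from the canonical start site (kb), with mock loops above and PDS loops below the line, and solid arcs for loops of the gene's own promoter. The 6 windows hold 37 mock loops and 8 PDS loops, and FOXA3 and CEBPA have no solid arc.

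By position, 39 of the 119 mock loops had an anchor within 1 kb of a start site of the gene itself, 7 touched the gene body only, and 73 lay in the flanks. Promoter loops numbered 11 after PDS, a ratio of 0.282 (0.146 to 0.544), and flank loops numbered 20, a ratio of 0.274 (0.168 to 0.447), and these intervals overlap over most of their length. The promoter loops of CEBPB made up 26 of the 39. These 39 loops had 166 PETs in mock-treated cells, and the 11 had 35 after PDS.

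Most of the loops that spanned more than 200 kb belonged to CEBPB, but long distances were not particular to it. Over the 8 genes, the median distance between anchor midpoints was 45.1 kb in mock-treated cells (quartiles 16.9 and 160 kb), beside 17.4 kb (9.78 and 45.7 kb) for the remaining mock loops. The median for the remaining loops of chromosome 20 was 20.8 kb. A loop with anchors far apart can enter a window through either of them, so the assignment to windows favours long loops. The remaining loops were not chosen through windows, and how far this raised the distances was not tested. Distances over 200 kb were found for 24 of the 119 loops, or 20.2%, beside 5.65% of the others, and 17 of the 24 belonged to CEBPB. Without CEBPB, 7 of 63 loops (11.1%) were this long and the median was 33.2 kb. For the 26 other hepatocyte factors, whose loops were assigned in the same way, the median was 25.7 kb. Within that list it was 122 kb for FOXA1 and 39.4 kb for HNF4A. By gene, the median ran from 25.4 kb for FOXA2 to 409 kb for the 4 loops of ONECUT1. It was 75.0 kb for CEBPB and 120 kb for the 8 loops of NR1H4.

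A predicted G4 motif was present in at least 1 anchor of 108 of the 119 mock loops (90.8%, 84.2 to 94.8%), beside 75.2% of all mock loops, 82.1% of those on chromosome 20 and 89.7% (85.8 to 92.5%) for the 26 other hepatocyte factors described last. Wider anchors are more likely to hold a motif, and the anchor pairs of these loops had a median summed width of 20453 bp, against 15351 bp for the others. At the same summed width, 93.4 of the 119 would hold one at the rate of the other loops. All 56 mock loops of CEBPB held a motif, and its promoter anchor alone held 26. Without CEBPB the share was 82.5%. The share of loops also listed after PDS was then compared between loops with and without a motif. Among loops with a motif in both anchors, 10 of 64 were shared (15.6%, 8.72 to 26.4%). With a motif in 1 anchor, 9 of 44 were shared (20.5%, 11.2 to 34.5%), and with none, 1 of 11 (9.09%, 1.62 to 37.7%). These intervals overlap. Over all mock loops, the shares were 13.1%, 10.4% and 9.50%. For the CEBPB promoter, 5 of the 7 partners also listed after PDS held a motif, and 13 of the 19 partners that were not.

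The share of loops in both lists depended on the chromosome 20 genes. CEBPB and FOXA2 together had 18 of the 20 shared loops, or 22.0% of their mock loops (14.4 to 32.1%). The other 6 genes had 2 of 37, or 5.41% (1.50 to 17.7%), a PROX1 and a FOXA3 loop. Loops with more PETs were more often in both lists, so the number of shared loops was also set against the number given by the rates of other loops of the same mock PETs. It was 20 beside 15.2 for the 8 genes, 12 beside 8.09 for CEBPB, 6 beside 3.34 for FOXA2, and 0 beside 1.04 for CEBPA. Matched on distance as well as PETs, it was 20 beside 12.8, a factor of 1.57 (1.04 to 2.29), where matching on PETs alone gave 1.32 (0.875 to 1.93). All of chromosome 20 showed a higher share, 16.7% of 5739 mock loops, than the remaining chromosomes, 10.5%. With other chromosome 20 loops as the reference, the 18 shared loops of CEBPB and FOXA2 stood beside 14.6. For all 8 genes, with reference loops of the same chromosome and the same PETs, the factor was 1.17 (0.774 to 1.70). The intervals treat loops as independent, although many of them share an anchor. The part of the chromosome in the result of these genes was not tested beyond these comparisons.

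Other hepatocyte factors gave a ratio whose interval lay within that of the 8 genes. A list of 26 further genes, among them HNF4A, FOXA1, PPARA and XBP1, had 319 mock loops and 86 PDS loops after loops shared with the 8 windows were left out, a ratio of 0.270 (0.213 to 0.342). In 21 of them there were at least 5 mock loops, and all 21 had a ratio at or below 0.5. The share over 11806 such windows of protein-coding genes was 94.1%, so this count does not set these factors apart. FOXA1, the pioneer factor related to FOXA2, had 60 and 30 loops, HNF4A, a nuclear receptor central to the hepatocyte, had 50 and 14, and PPARA and HLF had 19 each in mock-treated cells, with 8 and 7 after PDS. The 4 just named have the most mock loops of the list, and the median ratio over the 21 was lower, 0.143, beside 0.214 over all such windows. In their whole windows, 10 of the 26 had mock loops and no PDS loop, beside 24.8% of 17125 windows of protein-coding genes with a mock loop. Of their mock loops, 11.6% were in both lists, and the 37 shared loops stood beside 38.2 at the same PETs.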

How the data were processed

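The deposited files are 1 list of loops per condition, each with a pair of anchors and a whole-number count of PETs per loop. Per the study's methods, reads were aligned to GRCh38, deduplicated and assigned to MboI fragments with HiC-Pro 3.1.0. The loop caller, its filters, any scaling for depth and the way the 2 replicates were combined are not given in the sources used here. Of 81742 anchors, 81737 had an MboI site of GRCh38 at both ends.

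Loops of both lists were matched by identical anchors. Gene positions and start sites came from GENCODE 44, a promoter was taken as 1 kb on either side of a start site, and windows reached 50 kb past the gene. Ratios and shares have 95% intervals based on the Wilson interval, computed with scipy 1.17.1 in Python 3.11.15, which cover counting error only. PETs carry no molecular identifiers. The number of shared loops at the same PETs is the sum, over the mock loops of a gene, of the share listed after PDS among other mock loops with that count, pooled from 15 PETs upward. Sequences were read with pysam 0.24.0 and samtools 1.23.1, and the counting steps were tested on simulated data. Tables were handled with pandas 2.3.3 and numpy 2.4.6 and plots drawn with matplotlib 3.10.9.

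The 8 genes, the 26 further factors and the marker lists were chosen with earlier results of these data known. Loops were named by rule: per gene the 3 with most mock PETs, those with at least 10 PETs, the shared promoter loops, and any PDS-only loop with at least 5 PETs, of which there was none. For CEBPA, NR5A2 and NR1H4, not all of the 3 with most mock PETs are described singly. Other loops named were picked for their partner genes after their values were seen. Alternatives were other PET minimums, windows, promoter and motif definitions, matching with anchors extended by 5 kb, scaling by list totals and leaving out genes. BG4 ChIP-seq, RNAPII peaks and RNA-seq were not analysed here. A motif sequence and the values of a further factor gene are not reported here.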

Additional observations from a re-analysis of the deposited data

How the results depend on the processing

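In all, 67 alternatives of 9 results were computed. Of them, 37 stayed within the counting interval of the value given (for counts, within 1.5 times it), and 30 moved further. A reversal, a value crossing 1, was defined for the PDS/mock ratios only, and 0 of these reversed. Counted over expected shared loops, outside that rule, crossed from 1.32 to 0.442 at 5 PETs or more. Without the 2 chromosome 20 genes, it crossed to 0.536. Of the 67 alternatives, 9 were chosen after seeing the data: those without the 2 chromosome 20 genes, with reference loops of the same chromosome, and without HNF4A and FOXA1. The PET minimum mattered most, and it lowered the ratios over all loops too, to 0.204 for loops and 0.199 for PETs at 4 or more and to 0.149 and 0.161 at 5 or more. At 4 PETs or more, the PET ratio was 0.178, the promoter loop ratio 0.0909, the ratio of the 26 other factors 0.148, and 2 windows had 5 mock loops or more and a ratio at or below 0.5, beside 5 in the report. At 5 or more, the loop ratio was 0.0870, the PET ratio 0.075, the share of mock loops in both lists 4.35% (6.94% over all loops), the counted over expected shared loops 0.442, the promoter loop ratio 0, the ratio of the other factors 0.125, and again 2 windows did. Divided by the list totals, the PET ratio was 0.909, so most of the difference in PETs was that of the lists. Matching with anchors extended by 5 kb raised the shared share to 51.3%. With the gene body alone as the window, 2 windows did, every mock loop (100%) held a motif, 84.8% were promoter loops, and the ratio of the other factors was 0.188. With 100 kb on either side, 21.1% were promoter loops. Requiring both anchors in the window gave a PET ratio of 0.299 and a motif share of 95.7%. Asking for at least 10 mock loops left 3 such windows, and spacers of up to 12 bases raised the motif share to 97.5%. Without CEBPB the motif share was 82.5% and the promoter share 20.6%, against 32.8% with it. Without CEBPB and FOXA2, the PET ratio was 0.193, the shared share 5.41%, counted over expected 0.536, the motif share 78.4% and the promoter share 16.2%. Without HNF4A and FOXA1, the ratio of the other factors was 0.201. No paired analysis was possible because the lists combine the replicates and hold no values per replicate, and for the same reason leaving out a replicate was not run. Counts near 3 PETs limit what can be said of any single loop.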

Other observations

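The genes whose summed PETs lay closest to those of CEBPB, with 240 in mock-treated cells and 58 after PDS, were DST (236 and 57), ZFHX2 (241 and 60) and RERE (245 and 55), on chromosomes 6, 14 and 1. For FOXA2, with 106 and 31, the closest were HYCC2 (106 and 31) and the neighbours CYGB and PRCD, whose windows overlap and which had 105 and 31 each. Closeness was measured over 2 values, the log2 of PETs plus 1 in each condition, among protein-coding genes more than 1 Mb away.

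At the hepatocyte markers, 34 promoter loops were listed in mock-treated cells and 9 after PDS treatment, with 13 and 3 at ALB, 7 and 0 at TF, the transferrin gene, and 5 and 1 at AFP, the fetal albumin-like gene. APOA1, the main protein of high-density lipoprotein, had 0 loops in mock-treated cells and 1 of 3 PETs after PDS. Blood cell markers had 3 promoter loops in mock-treated cells, at CD3E and TAL1, and 0 after PDS. Fibroblast markers had 7 and 1, at COL1A1 and COL3A1.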
